A study of Mus musculus with 9 samples.

Results

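The SLC25 family is a group of transporters, most of them in the inner mitochondrial membrane, each built from repeats of the same membrane-spanning unit. They pass ATP, ADP, phosphate, carboxylates, amino acids, acylcarnitines, nucleotides and cofactors between cytosol and matrix. In fat cells they link the mitochondrion to fatty acid synthesis, since citrate has to leave the matrix before it can be cleaved to acetyl-CoA, and to fatty acid oxidation, since acylcarnitine has to enter it. The genes described here were all those whose single platform symbol starts with Slc25a, 38 of the 16299 genes with a single symbol, measured by 476 probe sets. Of these, 34 were tested, because they had at least 3 probe sets and a mean log2 value above the 25th percentile of genes (5.09). Slc25a2, Slc25a14, Slc25a31 and Slc25a41 lay under that level and were not tested. Slc25a5, an ADP/ATP carrier, has only probe sets with several symbols and was not analysed here.

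RNA was taken from the perigonadal white fat of 4-month-old mice and measured on 9 exon arrays, 3 in each of 3 groups. The groups are wild-type mice (WT), G609G/G609G mice, which carry the G609G allele on both chromosomes, and LCS/LCS mice, which carry the LCS allele on both. Both are alleles of Lmna, the gene of lamins A and C: G609G is known to produce the truncated lamin A called progerin, and LCS to produce lamin C only. Both alleles are carried in the germline, so every cell type of the depot is mutant. The design text calls the arrays biological replicates without tying them to animals, so p-values reflect only how much these arrays vary, and that variation may be technical.

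Values are log2 intensities summarised per gene. In the deposited values, 71.3% of tested genes were called lower in G609G than in WT and 8.26% higher (adjusted p under 0.05). Against LCS, 70.5% were called lower in G609G and 9.38% higher. The median fold of G609G was -0.47 against WT and -0.48 against LCS in log2 units, while LCS minus WT had a median of 0.05. Each array was therefore shifted by its median deviation from the gene means, and levels and folds below are on that relative scale unless called deposited. The shift of G609G against WT was 0.46 log2 units and also raised G609G values near the floor of the array, so by construction a gene at the floor on all arrays reads higher in G609G. In bulk tissue, fewer cells of a type and less RNA per cell cannot be told apart. Of 16 Lmna probe sets tested against the rest of that gene, 3 were called in G609G minus WT and 10 in LCS minus WT.

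Adipocyte markers were high on every array, but so were markers of other tissues on some. The 12 mature adipocyte markers had a median level between 12.48 and 12.67 on all arrays. Their summed linear intensity was 62700 to 65600 in G609G, 64700 to 68800 in WT and 70400 to 71600 in LCS. Single markers differed in G609G minus WT, where 3 of the 12 were higher and 7 lower (34.0% and 36.7% of all genes). The deposited values gave 0 and 11 (8.26% and 71.3% of all genes). Lep, which encodes leptin, fell by 5.41 (SE 0.05, adjusted p = 2.06e-15) to a mean of 5.08, under the filter. The lipid droplet protein Plin fell by 1.09 (SE 0.04, adjusted p = 9.7e-11) and the adipocyte transcription factor Cebpa by 0.73 (SE 0.06, adjusted p = 7.16e-07). Skeletal muscle markers stood apart in G609G. The 14 measured of 15 listed had a median level of 11.41 to 11.56 there, against 4.46 to 4.73 in WT and 4.62 to 4.70 in LCS. Their summed linear intensity was 58300 to 60500 in G609G, 865 to 912 in WT and 1870 to 1940 in LCS. Of the 14, 9 to 10 lay under the filter on each WT array and 0 to 1 on each G609G array, so most passed the filter through G609G alone. Macrophage markers (8) had a median level of 8.07 to 8.25 in G609G, 8.86 to 8.93 in WT and 9.04 to 9.14 in LCS. Epididymis and testis markers (14) had a median of 9.76 to 9.88 in G609G, 11.55 to 11.75 in WT and 8.56 to 8.67 in LCS. Their sum was 26800 to 27300 in G609G, 53600 to 59000 in WT and 33600 to 34800 in LCS. The 8 measured brown and beige adipocyte markers had a median level of 5.62 to 6.06 in G609G, 5.74 to 6.05 in WT and 5.25 to 5.47 in LCS. Their sum was 4280 to 4410 in G609G, 937 to 1010 in WT and 874 to 916 in LCS, and Cox8b, a cytochrome oxidase subunit also of muscle, had a mean of 11.77 in G609G and 8.98 in WT. Of the 5 tested, 4 were higher in G609G than in WT (34.0% of all genes) and Prdm16 was lower (-0.46, SE 0.10, adjusted p = 0.00136). The untested Ucp1 had a mean of 4.83 in G609G and 5.96 in WT. These values move with every G609G difference given below, and their part in the carrier results was not tested.

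The comparison of G609G with WT asks which carriers differ in the fat of the progeria model. On the relative scale 18 of the 34 tested carriers were higher and 12 were lower, where 34.0% of all tested genes were higher and 36.7% lower, or 70.7% in either direction. As deposited, 9 were higher and 18 lower, against 8.26% and 71.3% of all genes, or 79.5% in either direction. The carriers called higher on both scales were Slc25a4, Slc25a12, Slc25a22, Slc25a25, Slc25a30, Slc25a32, Slc25a33, Slc25a34 and Slc25a42. Those called lower on both were Slc25a1, Slc25a10, Slc25a11, Slc25a13, Slc25a17, Slc25a21, Slc25a23, Slc25a24, Slc25a35, Slc25a37, Slc25a40 and Slc25a45. A fold of at least 2 was reached by 8 carriers upward and 5 downward, against 4.05% and 6.65% of all genes. The median absolute log2 fold was 0.53 over the carriers and 0.34 over all genes. The WT and G609G arrays did not overlap for 29 of the 34, where 71.6% of all genes did not overlap.

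**Figure D1:**
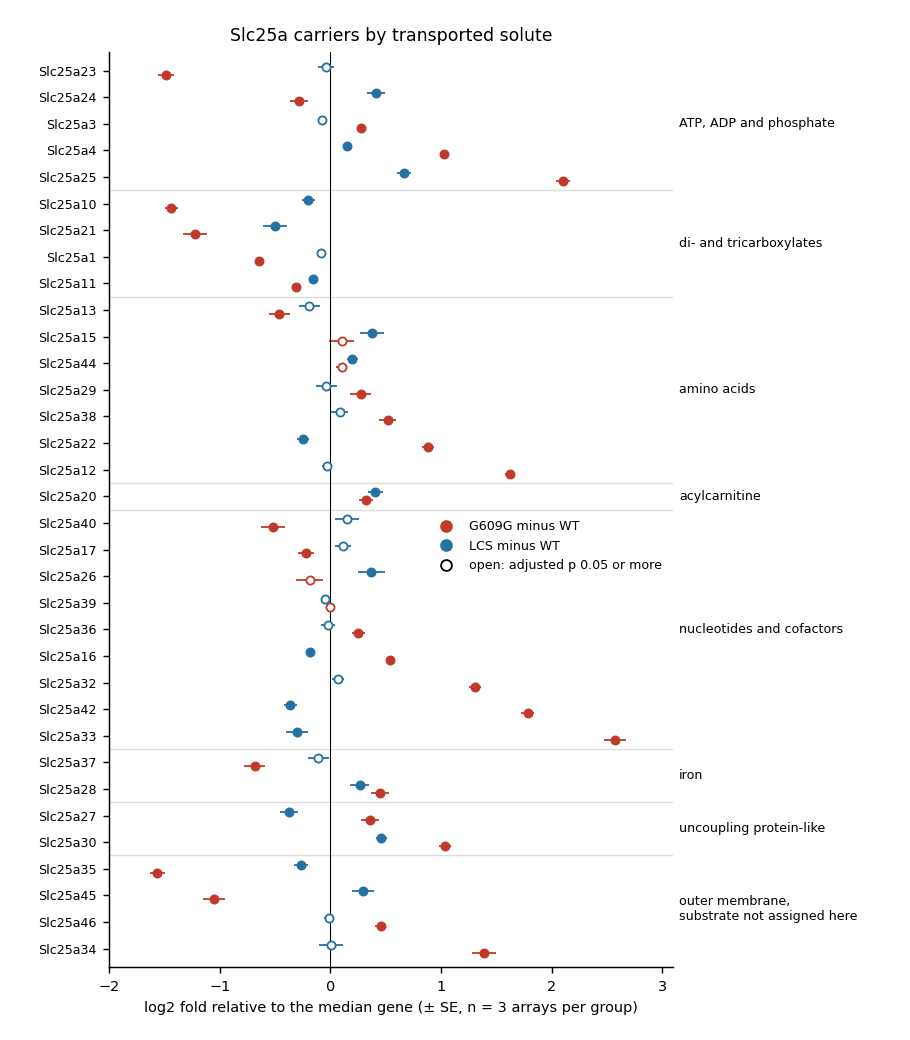
Log2 fold (x axis) of each of the 34 tested Slc25a genes in G609G minus WT (red) and LCS minus WT (blue), relative to the median gene and grouped by transported solute. Bars are standard errors of the fit, and open points have an adjusted p of 0.05 or more. Slc25a33 (2.57) and Slc25a25 (2.10) lie farthest to the right in G609G minus WT and Slc25a35 (-1.56) farthest to the left, while no carrier passes 1 log2 unit in LCS minus WT.

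Among the carriers that move ATP, ADP and phosphate, 3 of 5 tested were higher in G609G (34.0% of all genes) and 2 lower (36.7%), with a median of 0.28. On the deposited scale 2 of these carriers were higher (8.26% of all genes) and 3 lower (71.3%), with a median of -0.19. Slc25a25, a calcium-regulated ATP-Mg/phosphate carrier, rose the most of them. Its level was 6.59, 6.60 and 6.62 in WT, 8.61, 8.70 and 8.81 in G609G, and 7.24, 7.29 and 7.26 in LCS. All 3 G609G arrays lay above all others, and the LCS arrays lay between them and WT. The log2 fold of G609G minus WT was 2.10 (SE 0.06, adjusted p = 4.09e-11), and that of LCS minus WT was 0.66 (SE 0.06, adjusted p = 5.78e-06).

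Its paralogues were lower in G609G. Slc25a23, another calcium-regulated ATP-Mg/phosphate carrier, read 9.24, 9.18 and 9.29 in WT, 7.60, 7.71 and 7.93 in G609G, and 9.22, 9.17 and 9.20 in LCS. The G609G arrays were the lowest, and WT and LCS overlapped. G609G minus WT fell by 1.49 (SE 0.07, adjusted p = 2.53e-09), while LCS minus WT was -0.04 (SE 0.07, adjusted p = 0.704). Slc25a24, the third of these carriers, read 8.66, 8.66 and 8.65 in WT, 8.20, 8.32 and 8.60 in G609G, and 9.11, 9.02 and 9.06 in LCS. It fell by 0.28 (SE 0.08, adjusted p = 0.00771) in G609G and rose by 0.41 (SE 0.08, adjusted p = 0.0016) in LCS, with WT between the mutants and no overlap. With each array centred on its own median, the fall of Slc25a24 in G609G was not called (-0.13, adjusted p = 0.0965). Slc25a41, the remaining member of this subgroup, was under the filter.

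Slc25a4 encodes the ADP/ATP carrier that predominates in heart and skeletal muscle. Its level was 10.20, 10.12 and 10.06 in WT, 11.14, 11.17 and 11.14 in G609G, and 10.26, 10.26 and 10.30 in LCS. The G609G arrays were all above 11, with a log2 fold of 1.02 (SE 0.04, adjusted p = 1.96e-10), and the fold of LCS minus WT was 0.15 (SE 0.04, adjusted p = 0.00755). Slc25a31, the ADP/ATP carrier of the male germ line, was under the filter at 3.90, 3.65 and 3.45 in WT, 3.84, 3.93 and 3.84 in G609G, and 3.25, 3.34 and 3.40 in LCS. Slc25a3, the phosphate carrier that supplies ATP synthase, read 12.05, 11.97 and 11.87 in WT, 12.24, 12.26 and 12.22 in G609G, and 11.89, 11.91 and 11.88 in LCS. Its fold in G609G minus WT was 0.28 (SE 0.04, adjusted p = 4.88e-05) on the relative scale but -0.19 as deposited, and the call was lost under quantile normalization (0.06, adjusted p = 0.0829), so its direction depends on the scaling. The 5 tested ATP synthase and exchange partners listed beside these carriers were all higher on the relative scale (0.19 to 0.46), where 34.0% of all genes were. On the deposited scale none of these partners was higher and 2 were lower, against 8.26% and 71.3% of all genes. Among them, the ATP synthase subunits Atp5a1 and Atp5b had folds of 0.36 (SE 0.03, adjusted p = 4.17e-07) and 0.19 (SE 0.03, adjusted p = 0.000146), or -0.10 and -0.27 as deposited. Ppif, cyclophilin D of the permeability pore, had 0.36 (SE 0.07, adjusted p = 0.000407), or -0.10 as deposited. The sarcomeric mitochondrial creatine kinase Ckmt2 was not tested, with mean levels of 7.17 in G609G, 3.49 in WT and 3.39 in LCS.

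**Figure D2:**
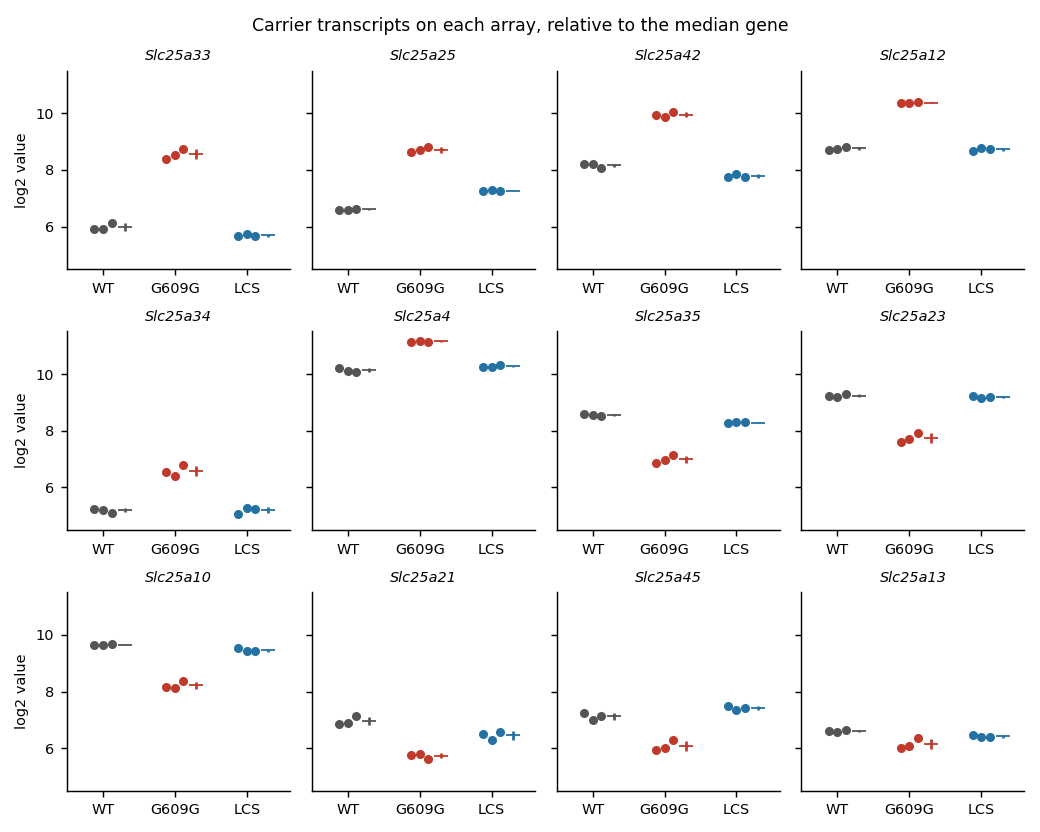
Relative log2 level of selected Slc25a genes on each of the 9 arrays, with the mean and SD (n = 3) beside the points of each group. The G609G points of Slc25a25, Slc25a33, Slc25a42 and Slc25a12 lie above all WT and LCS points, and those of Slc25a23, Slc25a10 and Slc25a35 lie below them.

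The sequences before the start of selected carriers are given because Slc25a25 had the largest rise of the carriers in LCS and Slc25a33 the largest in G609G, and because Slc25a36 and Slc25a34 were the other carriers with a match to TGACGTCA or AAGGTCA. They are the 250 bases before the annotated start in RefSeq (GRCm38.p6), 5′ to 3′, on the strand of the gene (minus for all). Capitals mark a match, on either strand, to any of 7 motifs searched: TGACGTCA (cAMP response element), AAGGTCA (extended nuclear receptor site), CCGCCC (GC box), TATAAA (a core promoter element), GTAAACA (forkhead core), TGCGCATGC (NRF1 core) and ACANNNTGT (core of the glucocorticoid response element). Overlapping matches are merged into 1 capital run. Windows were found for 29 of the 38 carriers, 38 windows in all.
Slc25a25, chr2:32424067-32424316: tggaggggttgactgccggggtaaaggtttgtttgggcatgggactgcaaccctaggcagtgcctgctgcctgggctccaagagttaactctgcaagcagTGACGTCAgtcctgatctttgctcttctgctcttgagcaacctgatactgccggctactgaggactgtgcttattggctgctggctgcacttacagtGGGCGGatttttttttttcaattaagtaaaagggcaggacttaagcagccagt
Slc25a25, chr2:32431152-32431401: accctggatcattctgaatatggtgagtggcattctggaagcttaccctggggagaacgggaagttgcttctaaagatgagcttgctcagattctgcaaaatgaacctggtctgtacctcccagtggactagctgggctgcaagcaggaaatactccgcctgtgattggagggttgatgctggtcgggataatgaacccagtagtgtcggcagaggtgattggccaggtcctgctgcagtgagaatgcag
Slc25a25, chr2:32451471-32451720: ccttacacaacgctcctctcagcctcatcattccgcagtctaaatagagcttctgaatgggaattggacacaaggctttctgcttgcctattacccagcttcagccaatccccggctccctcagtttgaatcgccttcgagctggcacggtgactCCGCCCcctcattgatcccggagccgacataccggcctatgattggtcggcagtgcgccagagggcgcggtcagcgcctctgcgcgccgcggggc
Slc25a33, chr4:149774268-149774517: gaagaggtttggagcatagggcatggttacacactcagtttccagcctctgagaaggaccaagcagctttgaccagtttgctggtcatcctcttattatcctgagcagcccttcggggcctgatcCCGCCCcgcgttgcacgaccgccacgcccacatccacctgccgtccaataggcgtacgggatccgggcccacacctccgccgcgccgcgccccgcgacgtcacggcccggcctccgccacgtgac
Slc25a36, chr9:97111042-97111291: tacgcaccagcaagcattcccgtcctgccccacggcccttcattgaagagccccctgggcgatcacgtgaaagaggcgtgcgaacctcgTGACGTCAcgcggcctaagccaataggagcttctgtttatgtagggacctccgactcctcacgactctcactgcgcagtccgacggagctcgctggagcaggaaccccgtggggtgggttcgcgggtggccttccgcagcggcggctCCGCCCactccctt
Slc25a34, chr4:141623835-141624084: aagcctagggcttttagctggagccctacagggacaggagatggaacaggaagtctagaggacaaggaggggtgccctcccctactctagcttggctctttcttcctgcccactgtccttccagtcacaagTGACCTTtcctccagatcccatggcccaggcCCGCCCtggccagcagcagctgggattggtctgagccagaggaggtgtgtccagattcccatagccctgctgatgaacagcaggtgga
TGACGTCA lay 150 bases before the start in 1 window of Slc25a25 and 161 bases before it in Slc25a36, the only carriers with it, and 1.55% of the 32851 windows of all genes held it. AAGGTCA was found on the opposite strand 119 bases before the start of Slc25a34 alone among carriers, against 4.08% of all windows. GC boxes were present in 28 of the 38 carrier windows, which belong to 22 carriers, against 32.7% of all windows, and TATAAA in Slc25a21 alone, against 12.4%. ACANNNTGT was found in the windows of Slc25a4, Slc25a21 and Slc25a24 (5.84% of all windows), TGCGCATGC in that of Slc25a31 (1.28%) and GTAAACA in no carrier window (3.17%). A match is a description of the letters and not a bound site.

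The di- and tricarboxylate carriers were all lower in G609G: 4 of 4 fell, on both scales, with a median log2 fold of -0.93, where 36.7% of all genes were lower, or 71.3% as deposited. Slc25a1, the citrate carrier that exports acetyl units for fatty acid synthesis, read 11.12, 11.07 and 11.02 in WT, 10.51, 10.42 and 10.35 in G609G, and 10.98, 10.99 and 10.98 in LCS. It fell by 0.64 (SE 0.04, adjusted p = 3.89e-08) in G609G, whose arrays were the lowest. Slc25a10, the dicarboxylate carrier, read 9.64, 9.65 and 9.68 in WT, 8.15, 8.14 and 8.37 in G609G, and 9.52, 9.42 and 9.42 in LCS. It fell by 1.44 (SE 0.06, adjusted p = 7.23e-10), and its G609G arrays lay more than 1 log2 unit below the lowest other array. Slc25a11, the oxoglutarate/malate carrier of the malate-aspartate shuttle, read 10.74, 10.70 and 10.69 in WT, 10.35, 10.40 and 10.44 in G609G, and 10.53, 10.55 and 10.57 in LCS. Its fall was small beside the others, at 0.31 (SE 0.03, adjusted p = 2.6e-06), although no arrays overlapped. Slc25a21, the oxodicarboxylate carrier, read 6.86, 6.89 and 7.12 in WT, 5.77, 5.80 and 5.63 in G609G, and 6.50, 6.28 and 6.58 in LCS. It fell by 1.22 (SE 0.10, adjusted p = 5.8e-07), and the LCS arrays lay between WT and G609G without overlap.

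The enzymes that work with these carriers were listed with them. Of 8 tested enzymes of the malate-aspartate and citrate-malate shuttles, 4 were higher and 3 lower in G609G on the relative scale (34.0% and 36.7% of all genes). The deposited values gave 1 and 6 (8.26% and 71.3% of all genes). Got1, the cytosolic aspartate aminotransferase, read 8.66, 8.66 and 8.78 in WT, 10.77, 10.73 and 10.82 in G609G, and 8.94, 8.72 and 8.82 in LCS. Its G609G arrays were all above 10, with a fold of 2.07 (SE 0.06, adjusted p = 1.54e-11). Its mitochondrial counterpart Got2 read 12.16, 12.13 and 12.06 in WT, 11.63, 11.60 and 11.56 in G609G, and 11.14, 11.21 and 11.19 in LCS, and fell by 0.52 (SE 0.03, adjusted p = 4.31e-08) in G609G and by 0.94 (SE 0.03, adjusted p = 8.97e-10) in LCS. Acly, which cleaves the exported citrate, read 10.50, 10.45 and 10.45 in WT, 9.77, 9.69 and 9.72 in G609G, and 10.15, 10.11 and 10.11 in LCS, and fell by 0.74 (SE 0.03, adjusted p = 1.48e-09) in G609G and by 0.35 (SE 0.03, adjusted p = 5.53e-06) in LCS. Got2 and Acly were thus lower than WT on every array of both mutants.

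The aspartate/glutamate carriers of the malate-aspartate shuttle moved in opposite directions. Slc25a12 (aralar), the form of muscle and brain, read 8.71, 8.74 and 8.81 in WT, 10.36, 10.36 and 10.41 in G609G, and 8.65, 8.76 and 8.75 in LCS. Its G609G arrays were all above 10 and its WT and LCS arrays overlapped, with folds of 1.62 (SE 0.04, adjusted p = 1.47e-11) and -0.03 (SE 0.04, adjusted p = 0.574). Slc25a13 (citrin), the form of liver, read 6.61, 6.59 and 6.64 in WT, 6.01, 6.09 and 6.36 in G609G, and 6.47, 6.39 and 6.4 in LCS. It fell by 0.46 (SE 0.09, adjusted p = 0.000923) in G609G minus WT, and LCS minus WT was -0.19 (SE 0.09, adjusted p = 0.133). Its LCS arrays lay between the other groups. Of the 7 tested amino acid carriers, 4 were higher and 1 lower in G609G, where 34.0% and 36.7% of all genes were. The deposited values gave 2 and 3, against 8.26% and 71.3% of all genes. Slc25a22, a glutamate carrier, rose by 0.88 (SE 0.06, adjusted p = 3.32e-08) in G609G and fell by 0.25 (SE 0.06, adjusted p = 0.00364) in LCS. The glycine carrier Slc25a38 had 0.52 (SE 0.07, adjusted p = 5.96e-05) on the relative scale, and the deposited 0.05 was not called. Slc25a29, a carrier of basic amino acids, had 0.27 (SE 0.10, adjusted p = 0.023), or -0.19 as deposited. That call was lost without WT replicate 3, G609G replicate 1, G609G replicate 2 or LCS replicate 2 (adjusted p from 0.0615 to 0.14), under quantile normalization (0.0839) and with a plain mean of probe sets (0.108). The ornithine carrier Slc25a15 and the branched-chain amino acid carrier Slc25a44 did not pass on the relative scale, with 0.10 (SE 0.11, adjusted p = 0.431) and 0.10 (SE 0.05, adjusted p = 0.0774), and were called lower as deposited (-0.36 each). Of the enzymes beside them, Glud1, glutamate dehydrogenase, and Oat, ornithine aminotransferase, rose by 0.89 (SE 0.03, adjusted p = 1.01e-10) and 0.64 (SE 0.03, adjusted p = 8.9e-09). Arg2, the mitochondrial arginase, fell by 0.46 (SE 0.07, adjusted p = 6.19e-05) in G609G and by 0.59 (SE 0.07, adjusted p = 2.55e-05) in LCS.

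Slc25a20, the carnitine/acylcarnitine carrier through which long-chain fatty acids enter the matrix, read 8.41, 8.31 and 8.42 in WT, 8.58, 8.68 and 8.85 in G609G, and 8.78, 8.83 and 8.75 in LCS. Both mutants lay above WT on this scale, and they overlapped each other. The fold was 0.32 (SE 0.07, adjusted p = 0.000997) in G609G minus WT, where the deposited fold was -0.14, and 0.41 (SE 0.07, adjusted p = 0.000428) in LCS minus WT (deposited 0.44). Of the 4 tested acyltransferases and acyl-CoA synthetases listed beside it, 2 were higher and 2 lower in G609G (34.0% and 36.7% of all genes). All 4 were lower as deposited, where 71.3% of all genes were. Cpt1a, which forms acylcarnitine at the outer membrane, fell by 1.20 (SE 0.04, adjusted p = 1.46e-10), and Cpt2, which reverses the reaction in the matrix, by 0.49 (SE 0.08, adjusted p = 0.000132). In LCS their folds were 0.13 (SE 0.04, adjusted p = 0.0254) and 0.26 (SE 0.08, adjusted p = 0.0203). Crat, carnitine acetyltransferase, was at 0.09 (SE 0.03, adjusted p = 0.0209) in G609G, or -0.37 and called lower as deposited. The muscle form Cpt1b, with 2 probe sets, was not tested, and its mean levels were 8.07 in G609G, 7.07 in WT and 5.86 in LCS.

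Nucleotide and cofactor carriers held the largest rise of the family. Of 9 tested, 5 were higher and 2 lower in G609G, against 34.0% and 36.7% of all genes, but as deposited 3 were higher and 5 lower, against 8.26% and 71.3%. Slc25a33, the pyrimidine nucleotide carrier, read 5.91, 5.91 and 6.14 in WT, 8.39, 8.54 and 8.75 in G609G, and 5.66, 5.73 and 5.66 in LCS. Its G609G arrays lay more than 2 log2 units above every other array, with a fold of 2.57 (SE 0.10, adjusted p = 4.4e-10). Its rank by absolute size was 170 of 11342 genes. Slc25a36, the other pyrimidine nucleotide carrier, had 0.25 (SE 0.06, adjusted p = 0.00305) on the relative scale and -0.21 as deposited. Slc25a42, a carrier of coenzyme A, read 8.19, 8.19 and 8.08 in WT, 9.94, 9.85 and 10.04 in G609G, and 7.75, 7.87 and 7.76 in LCS, and the G609G arrays were the highest and the LCS arrays the lowest. Its folds were 1.79 (SE 0.06, adjusted p = 8.66e-11) in G609G and -0.36 (SE 0.06, adjusted p = 0.000372) in LCS. Slc25a32, a carrier linked to folate and FAD, read 7.95, 8.06 and 7.86 in WT, 9.21, 9.25 and 9.32 in G609G, and 8.03, 8.04 and 8.0 in LCS. Its G609G arrays were the highest and WT and LCS overlapped, with 1.30 (SE 0.06, adjusted p = 9.43e-10) in G609G and 0.07 (SE 0.06, adjusted p = 0.386) in LCS. Slc25a16, linked to coenzyme A, had 0.54 (SE 0.04, adjusted p = 4.97e-08) in G609G, where the deposited 0.08 was not called, and -0.18 (SE 0.04, adjusted p = 0.00133) in LCS. Slc25a40 fell by 0.52 (SE 0.11, adjusted p = 0.00122), whereas its paralogue Slc25a39, known for mitochondrial glutathione uptake, was at -0.0023 (SE 0.04, adjusted p = 0.957). Slc25a39 was called lower as deposited (-0.47) and higher with each array centred on its own median (0.15). The peroxisomal carrier Slc25a17 had -0.22 (SE 0.07, adjusted p = 0.0162). That call was lost without WT replicate 1, WT replicate 3, G609G replicate 1 or G609G replicate 2 (adjusted p from 0.0691 to 0.114), with each array centred on its own median (-0.07, adjusted p = 0.312) and with a plain mean of probe sets (-0.14, adjusted p = 0.0631), and its arrays overlapped. Slc25a26, the S-adenosylmethionine carrier, was at -0.19 (SE 0.12, adjusted p = 0.185), and as deposited it was called lower at -0.65.

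The iron carriers, the mitoferrins, differed from each other. Slc25a37 (mitoferrin 1), the form of red cell precursors, read 7.96, 7.91 and 8.21 in WT, 7.42, 7.16 and 7.44 in G609G, and 7.91, 7.85 and 7.98 in LCS. It fell by 0.68 (SE 0.09, adjusted p = 3.85e-05) in G609G, whose arrays were the lowest, and WT and LCS overlapped. Slc25a28 (mitoferrin 2), the form of other tissues, read 8.19, 8.09 and 8.11 in WT, 8.34, 8.72 and 8.68 in G609G, and 8.37, 8.41 and 8.40 in LCS. It was called higher at 0.45 (SE 0.08, adjusted p = 0.000472) on the relative scale, but its deposited fold was -0.01. The WT arrays were the lowest, and the mutants overlapped. In LCS, Slc25a28 was at 0.26 (SE 0.08, adjusted p = 0.0261) and Slc25a37 at -0.11 (SE 0.09, adjusted p = 0.391). Leaving out WT replicate 2 or LCS replicate 2 ended the LCS call of Slc25a28 (adjusted p = 0.0594 and 0.0753). Of the 8 tested genes of haem and iron-sulphur synthesis, 2 were higher and 4 lower in G609G (34.0% and 36.7% of all genes), and 1 and 7 as deposited (8.26% and 71.3%). Alas2, the first enzyme of haem synthesis in red cell precursors, read 8.33, 8.30 and 8.38 in WT, 7.04, 7.20 and 7.09 in G609G, and 7.10, 7.15 and 7.12 in LCS, and fell by 1.23 (SE 0.06, adjusted p = 4.52e-09) in G609G and by 1.21 (SE 0.06, adjusted p = 2.23e-08) in LCS. Alas1, the form of other tissues, fell by 0.38 (SE 0.05, adjusted p = 5.51e-05) in G609G and rose by 0.78 (SE 0.05, adjusted p = 3.41e-07) in LCS. Hspa9, the mitochondrial Hsp70 that also serves iron-sulphur assembly, rose by 0.73 (SE 0.04, adjusted p = 3.59e-09) in G609G.

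Of the carriers that resemble uncoupling proteins, Slc25a30 read 8.62, 8.48 and 8.41 in WT, 9.52, 9.52 and 9.57 in G609G, and 8.97, 8.97 and 8.95 in LCS. Both mutants lay above WT without overlap, with 1.03 (SE 0.05, adjusted p = 4.72e-09) in G609G and 0.46 (SE 0.05, adjusted p = 2.41e-05) in LCS. Slc25a27 read 6.61, 6.49 and 6.63 in WT, 6.82, 6.92 and 7.05 in G609G, and 6.22, 6.19 and 6.18 in LCS. Its G609G arrays were the highest and its LCS arrays the lowest on this scale, with 0.36 (SE 0.08, adjusted p = 0.00201) in G609G, where the deposited fold was -0.11, and -0.38 (SE 0.08, adjusted p = 0.0028) in LCS. Slc25a14 was under the filter. The uncoupling proteins themselves belong to the same family under other symbols. Ucp3, the form of muscle and brown fat, read 7.59, 7.60 and 7.75 in WT, 8.57, 8.65 and 8.75 in G609G, and 8.53, 8.39 and 8.44 in LCS. Its WT arrays were the lowest, with 1.01 (SE 0.07, adjusted p = 4.46e-08) in G609G and 0.80 (SE 0.07, adjusted p = 1.37e-06) in LCS. Ucp2, expressed in many tissues, read 11.26, 11.16 and 11.20 in WT, 11.31, 11.29 and 11.30 in G609G, and 11.76, 11.75 and 11.72 in LCS. Its LCS arrays were the highest, with 0.54 (SE 0.03, adjusted p = 5.12e-08), and its G609G fold was 0.09 (SE 0.03, adjusted p = 0.0184), or -0.37 as deposited. Ucp1, the uncoupling protein of brown fat, had a mean over the 9 arrays under the filter and was not tested, at 6.13, 5.66 and 6.09 in WT, 4.93, 4.81 and 4.76 in G609G, and 4.05, 4.40 and 4.09 in LCS. It was highest in WT.

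The remaining carriers have no substrate assigned here or act at the outer membrane. Slc25a35 showed the largest fall of the family, at 8.58, 8.54 and 8.53 in WT, 6.87, 6.96 and 7.13 in G609G, and 8.26, 8.29 and 8.30 in LCS, with a fall of 1.56 (SE 0.07, adjusted p = 8e-10) in G609G. Slc25a34, a close paralogue of it, read 5.25, 5.22 and 5.10 in WT, 6.54, 6.41 and 6.78 in G609G, and 5.06, 5.27 and 5.24 in LCS. Its G609G arrays were the highest, with a fold of 1.39 (SE 0.11, adjusted p = 2.62e-07), and WT and LCS overlapped. Its deposited fold was 0.92. Its WT and LCS levels lay close to the filter, where folds are compressed and the shift raises G609G values. The relative fold may therefore understate or overstate the difference. Slc25a45 read 7.24, 7.0 and 7.15 in WT, 5.95, 6.01 and 6.28 in G609G, and 7.50, 7.35 and 7.43 in LCS. It fell by 1.05 (SE 0.10, adjusted p = 1.45e-06) in G609G, whose arrays were the lowest, and the LCS arrays were the highest. Slc25a46, an outer membrane protein that shapes mitochondria, had 0.45 (SE 0.05, adjusted p = 2.77e-06) on the relative scale and -0.01 as deposited.

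The comparison of LCS with WT asks which carriers differ when lamin C is made without lamin A. Markers of other tissues also differed between these groups, as given above, and their part was not tested. Here 10 of 34 carriers were higher and 9 lower, where 22.3% of all genes were higher and 17.7% lower. As deposited, 10 were higher and 7 lower, against 22.5% and 13.0%. No carrier reached a fold of 2, which 0.494% of all genes reached upward and 2.50% downward. The median absolute log2 fold was 0.19 over the carriers and 0.15 over all genes, and the arrays did not overlap for 22 of 34 carriers, against 57.8% of all genes. The largest rises were those of Slc25a25, Slc25a30, Slc25a24 and Slc25a20, given above, followed by Slc25a15. Slc25a15 read 6.46, 6.53 and 6.37 in WT, 6.34, 6.67 and 6.66 in G609G, and 6.85, 6.66 and 6.99 in LCS, with 0.38 (SE 0.11, adjusted p = 0.0169). That call was lost without WT replicate 3, LCS replicate 1 or LCS replicate 3 (adjusted p from 0.0512 to 0.0979).

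The largest falls in LCS were those of Slc25a21 (-0.50, SE 0.10, adjusted p = 0.00235), Slc25a27, Slc25a42, Slc25a33 and Slc25a35. The fall of Slc25a35 was 0.26 (SE 0.07, adjusted p = 0.0068), and its LCS arrays lay between WT and G609G. Slc25a33 was at -0.30 (SE 0.10, adjusted p = 0.0336), which was lost as deposited (adjusted p = 0.0956), under quantile normalization (0.0833) and without WT replicate 2, WT replicate 3, LCS replicate 1 or LCS replicate 3 (adjusted p from 0.055 to 0.116). Of the dicarboxylate carriers, Slc25a11 fell by 0.16 (SE 0.03, adjusted p = 0.00148) and Slc25a1 did not pass (-0.08, SE 0.04, adjusted p = 0.136). Slc25a10 was at -0.20 (SE 0.06, adjusted p = 0.0183), but not called as deposited (adjusted p = 0.124) or without WT replicate 3 or LCS replicate 3 (adjusted p from 0.0509 to 0.0543).

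Smaller rises in LCS were called for Slc25a4, Slc25a28, Slc25a26, Slc25a44 and Slc25a45. Slc25a26 was at 0.37 (SE 0.12, adjusted p = 0.0296), lost without WT replicate 3, LCS replicate 2 or LCS replicate 3 (adjusted p from 0.0711 to 0.0971) and with bright probe sets only (0.106). Slc25a44 was at 0.20 (SE 0.05, adjusted p = 0.00648), lost without WT replicate 1 (0.0595). Slc25a45 was at 0.30 (SE 0.10, adjusted p = 0.0329), lost on leaving out G609G replicate 2, WT replicate 1 or WT replicate 2 (adjusted p from 0.0501 to 0.0819). Slc25a4 read higher on all 3 LCS arrays than on any WT array.

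**Figure D3:**
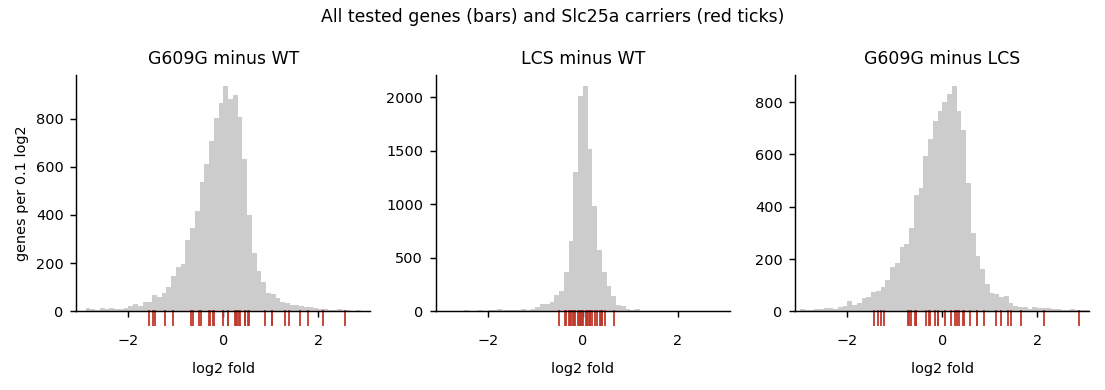
Distribution of log2 folds over the 11342 tested genes in each comparison, relative to the median gene, as bars of genes per 0.1 log2 unit, with the 34 carriers as red ticks. Genes beyond 3 log2 units are not drawn. In G609G minus WT carriers lie in both tails, from -1.56 to 2.57, while in LCS minus WT they lie between -0.50 and 0.66.

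G609G and LCS were also compared directly, which sets the alleles against each other. Of 34 carriers, 16 were higher and 14 lower in G609G on the relative scale, where 36.9% of all genes were higher and 36.9% lower, or 73.8% in either direction. As deposited, 10 were higher and 20 lower, against 9.38% and 70.5%, or 79.9% in either direction. A fold of at least 2 was reached by 7 carriers upward and 4 downward, against 4.92% and 7.92% of all genes, and the arrays did not overlap for 29 of 34 carriers, against 75.3%. The largest rises were Slc25a33 (2.87, SE 0.10, adjusted p = 1.27e-10), Slc25a42 (2.15, SE 0.06, adjusted p = 1.26e-11), Slc25a12 (1.66, SE 0.04, adjusted p = 9.22e-12), Slc25a25 (1.44, SE 0.06, adjusted p = 1.07e-09) and Slc25a34 (1.38, SE 0.11, adjusted p = 2.29e-07). The largest falls were Slc25a23 (-1.45, SE 0.07, adjusted p = 2.69e-09), Slc25a45 (-1.35, SE 0.10, adjusted p = 1.27e-07), Slc25a35 (-1.30, SE 0.07, adjusted p = 3.69e-09), Slc25a10 (-1.24, SE 0.06, adjusted p = 2.42e-09) and Slc25a21 (-0.72, SE 0.10, adjusted p = 5.57e-05). This comparison tests the difference between the mutants, so Slc25a25, raised in both, was higher in G609G by 1.44 log2 units. Slc25a24 was lower in G609G than in LCS by 0.69 (SE 0.08, adjusted p = 8.26e-06), and Slc25a20 did not pass (-0.08, SE 0.07, adjusted p = 0.27). The phosphate carrier Slc25a3 was at 0.35 (SE 0.04, adjusted p = 5.56e-06), or -0.15 as deposited. Among calls near the threshold, Slc25a13 (-0.27, SE 0.09, adjusted p = 0.0219) was lost without G609G replicate 1, G609G replicate 2, LCS replicate 2 or LCS replicate 3 (adjusted p from 0.0582 to 0.0897), in a fit on these groups blocked by replicate number (0.0574) and with each array centred on its own median (0.192). Slc25a15 (-0.28, SE 0.11, adjusted p = 0.0389) was lost in 6 of 9 fits that each left out 1 array (without WT replicates 1, 2 or 3, G609G replicate 1, LCS replicate 1 or LCS replicate 3; adjusted p from 0.0525 to 0.267) in the blocked fit (0.0569), in a fit on these groups alone (0.0633), under quantile normalization (0.107) and with each array centred on its own median (0.267). Slc25a29 (0.31, SE 0.10, adjusted p = 0.0113) was lost without G609G replicate 1, G609G replicate 2, LCS replicate 2 or LCS replicate 3 (adjusted p from 0.0719 to 0.128) and under quantile normalization (0.204), and its deposited fold was -0.19.

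The gene values hide differences between parts of a transcript, which exon arrays can show. Each probe set was tested against the other probe sets of its gene with limma's diffSplice. In G609G minus WT, 67 of 410 carrier probe sets in 29 of 37 carriers were called, 27 above and 40 below the rest of their gene, where 15.9% of all probe sets were called. A splicing index, which gives each probe set its own variance, called 50, of which 41 were the same. Positions of probe sets within the genes were not used.

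Slc25a25 had 10 of its 24 tested probe sets called in G609G minus WT, with own log2 folds from 0.08 to 3.36. Probe set 4729235 stayed at 5.42 ± 0.38 in WT, with 5.42 ± 0.26 in LCS and 5.50 ± 0.79 in G609G (SD, n = 3), and differed from the rest of the gene by -2.06 (adjusted p = 1.66e-11). These levels lay close to 5.13, the value a probe set mean had to pass to be tested. Whether this probe set responds to its transcript was not tested. Probe set 4773203 of the same gene was at 6.51 ± 0.21, 6.65 ± 0.15 and 7.17 ± 0.08 in WT, G609G and LCS, and differed by -2.0 (adjusted p = 6.58e-11). Between WT and G609G these probe sets differed by less than their SD, while the rest of Slc25a25 rose.

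A single probe set of Slc25a12 and of Slc25a33 also differed between WT and G609G by less than its SD. In the other carriers called higher on both scales, the lowest own folds were -0.07 in Slc25a22, 0.15 in Slc25a30 and 0.52 in Slc25a4. They were 0.88 in Slc25a42, 0.97 in Slc25a32 and 0.62 in Slc25a34. The lowest probe set of Slc25a22 was also called by diffSplice (7.66 ± 0.22 in WT and 7.59 ± 0.22 in G609G, adjusted p = 3.69e-06). Probe set 4722350 of Slc25a12 was at 7.67 ± 0.19 in WT and 7.84 ± 0.42 in G609G (SD, n = 3), -1.36 from the rest (adjusted p = 4.76e-12). Probe set 4758290 of Slc25a33 was at 6.27 ± 0.12 and 6.22 ± 0.52, -2.68 from the rest (adjusted p = 4.13e-11). The other probe sets of Slc25a33 had own folds of up to 3.42. In the other direction, probe set 4458852 of Slc25a45 was higher in G609G, at 9.44 ± 0.24 against 8.57 ± 0.17, while the gene fell (difference 2.07, adjusted p = 6.14e-07). The other 6 tested probe sets of Slc25a45 had own folds below 0, down to -1.73. The fall of Slc25a40 was not uniform either, as 7 of its 14 tested probe sets were called. Their own folds ran from -1.77 to 0.98 over the 14, above 0 in 3 and below 0 in 11.

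In LCS minus WT, 3 carrier probe sets were called, where 1.80% of all probe sets were. They were 4763021 of Slc25a1 (0.79 above the rest, adjusted p = 6.61e-07), 4467635 of Slc25a15 (1.12, adjusted p = 0.00758) and 4706272 of Slc25a11 (0.60, adjusted p = 0.0148). Their mean levels in WT and LCS were 5.29 and 5.99, 4.84 and 6.32, and 6.84 and 7.27. The WT levels of 4763021 and 4467635 thus lay close to or under the probe set filter of 5.13. The splicing index called 0 of the 410 (36 at an unadjusted p under 0.05), and 8 were called by diffSplice without G609G replicate 3. In G609G minus LCS, 82 were called in 34 carriers, against 18.4% of all probe sets. The lowest p-values there belonged to 4722350 of Slc25a12, 4758290 of Slc25a33, 4773203 of Slc25a25 and 4458852 of Slc25a45, already named, and to 5169646 of Slc25a22 (-1.08, adjusted p = 3.72e-07). The count fell to 51 without LCS replicate 1 and to 53 without LCS replicate 2. In G609G minus WT it fell to 38 without WT replicate 1.

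**Figure D4:**
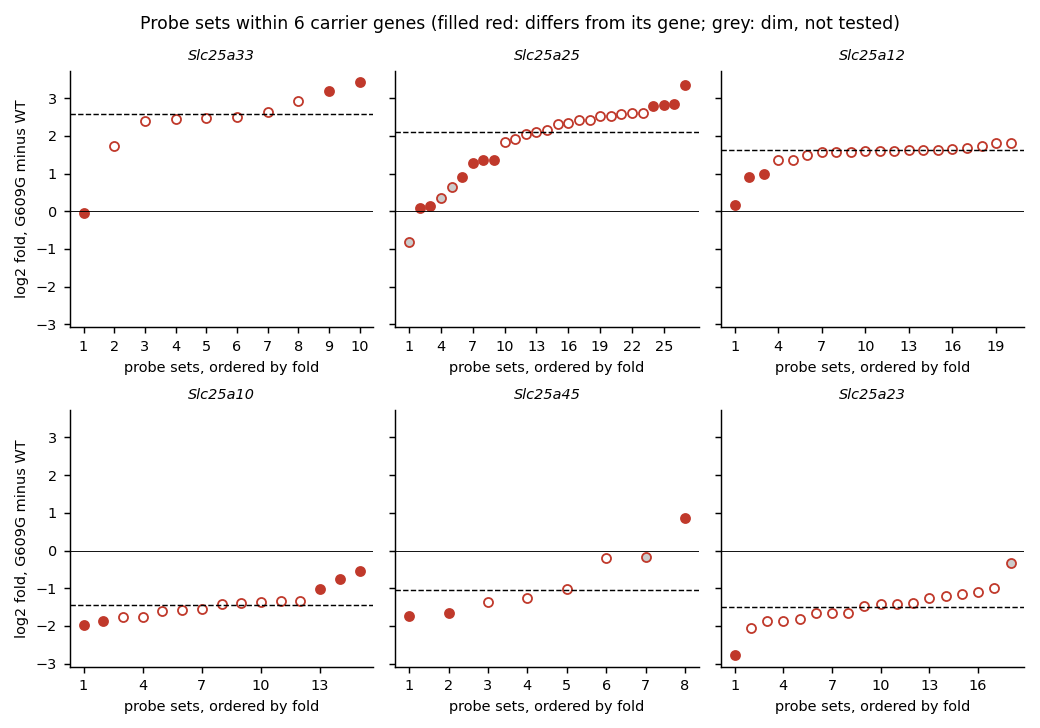
Own log2 fold (y axis) in G609G minus WT of every probe set of 6 carriers, relative to the median gene and ordered by fold. Filled red points were called by diffSplice, open points were tested and not called, grey points were too dim to be tested, and the dashed line is the gene's fold. Called probe sets near 0 stand apart from the raised remainder in Slc25a25, Slc25a33 and Slc25a12, and 1 raised probe set stands apart in Slc25a45.

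Carriers reach the inner membrane through import receptors and small chaperones, and share the organelle with other transport proteins. Of 72 genes listed as partners of the carriers, 61 were measured and 56 tested. In G609G minus WT 26 were higher and 18 lower on the relative scale, and 7 and 42 as deposited, which are to be read against the 34.0% and 36.7%, and 8.26% and 71.3%, of all genes. In LCS minus WT 11 were higher and 10 lower, against 22.3% and 17.7%. Without WT replicate 2, or without LCS replicate 3, 7 of the partner genes were higher in LCS. Of the 8 tested import genes, Timm9, a small chaperone of the intermembrane space, rose by 0.72 (SE 0.08, adjusted p = 7.24e-06) in G609G, and Timm22, the channel that inserts carriers, fell by 0.48 (SE 0.15, adjusted p = 0.0109).

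The outer membrane pores Vdac1, Vdac2 and Vdac3 were called higher in G609G on the relative scale, at 0.58 (SE 0.03, adjusted p = 1.67e-09), 0.25 (SE 0.03, adjusted p = 2.85e-05) and 0.58 (SE 0.04, adjusted p = 8.06e-08). As deposited, Vdac1 was higher (0.12), Vdac2 was lower (-0.22) and Vdac3 was not called (0.12, adjusted p = 0.0704). Micu2, a regulator of mitochondrial calcium uptake listed in the annotation as Efha1, fell by 0.86 (SE 0.08, adjusted p = 1.79e-06). The sideroflexins are serine and related carriers outside the SLC25 family. In LCS, Sfxn1 fell by 0.38 (SE 0.03, adjusted p = 1.44e-06) and Sfxn5 rose by 0.55 (SE 0.06, adjusted p = 9.4e-06). Sfxn2 rose by 0.25 (SE 0.07, adjusted p = 0.0179), while Sfxn3 (-0.07, adjusted p = 0.362) and Sfxn4 (-0.11, adjusted p = 0.605) were not called. Tspo, the outer membrane protein that binds cholesterol and porphyrins, rose by 0.31 (SE 0.03, adjusted p = 8.4e-06) in LCS.

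**Figure D5:**
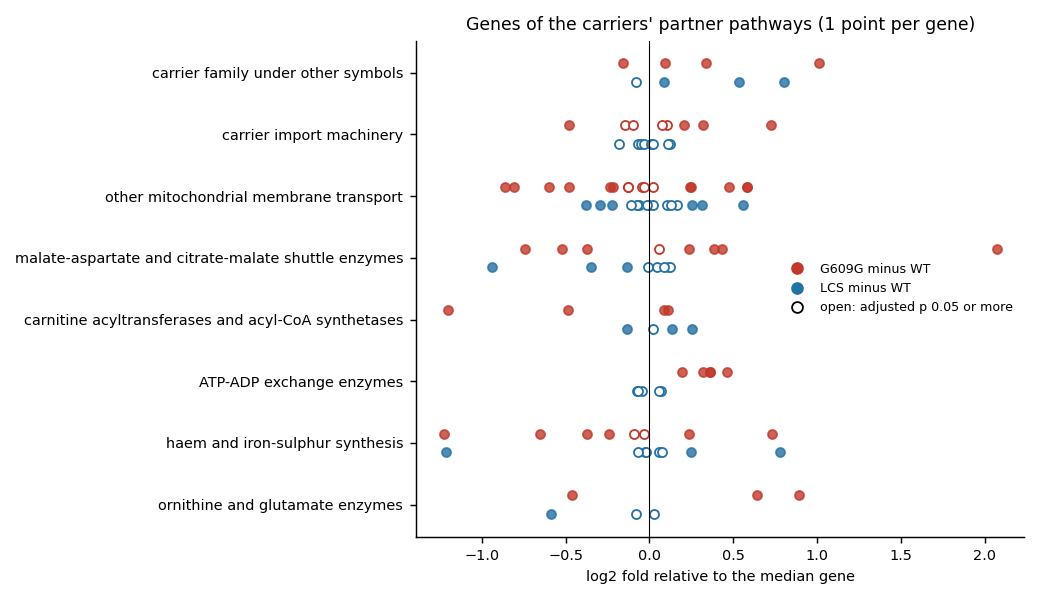
Log2 fold (x axis) of the 56 tested partner genes by list, in G609G minus WT (red) and LCS minus WT (blue), relative to the median gene. Filled points have an adjusted p under 0.05. Got1 (2.07) is the highest point and Alas2 the lowest in G609G minus WT (-1.23), and Alas2 is again the lowest in LCS minus WT (-1.21).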

How the data were processed

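Biotin-labelled total RNA was hybridised to Affymetrix exon arrays. The values the authors deposited are log2 intensities of 229581 probe sets on each of 9 arrays, and mm9 is the build in the submitters' processing notes. Their normalization was not given in the sources used here. Of 10 samples in the design text, 9 were analysed. Arrays were grouped by title.

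Genes were formed from the 208397 probe sets with exactly 1 symbol in the platform annotation (3965 had several, 17219 none) and summarised by median polish. From every array the median of its deviations from the gene means was subtracted. A gene entered the tests with 3 or more probe sets and a mean over the 25th percentile (11342 genes). Tests used limma 3.58.1 in R 4.3.3 (lmFit and eBayes with a trend over 9 arrays, Benjamini-Hochberg adjustment, threshold 0.05). The 155155 probe sets over their own 25th percentile went into diffSplice. The steps were tested on simulated data.

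The carriers and the partner and marker lists were chosen with earlier results of these data known. Described in full were the 5 largest called rises and falls per comparison and the fixed paralogue groups with Slc25a3 and Slc25a20, and of each partner list up to 3 genes of lowest p, besides others named for their role with their values seen. Probe sets were named by the lowest diffSplice p, up to 5. RefSeq tables (GRCm38.p6) updated list symbols and gave the promoter sequences, and no position of a probe set was used. Deviations of same-numbered arrays from their group means correlated with r = 0.168, 0.145 and 0.337 in G609G and WT. They correlated with r from -0.121 to 0.204 in the other group pairs. Arrays with different numbers were not correlated, so these values cannot show whether the replicate numbers pair the arrays. At most 1.89% of values were identical between 2 arrays.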

Additional observations from a re-analysis of the deposited data

How the results depend on the processing

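Counts over the Slc25a members, the partner genes and all genes depended most on the scaling and on the test. Those over all genes depended as well on the filter for dim genes. As deposited, the Slc25a members higher in G609G numbered 9 against WT and 10 against LCS. As deposited, 7 partner genes were higher and 42 lower in each of these comparisons, and of all genes 937 and 1064 were higher and 8083 and 7998 lower. Quantile normalization gave 16 higher and 13 lower Slc25a members in G609G minus WT, and centring each array on its median gave 21 and 10. The deposited values turned the direction in G609G minus WT for Slc25a15 (-0.36), Slc25a20 (-0.14), Slc25a27 (-0.11), Slc25a28 (-0.0133), Slc25a29 (-0.19), Slc25a3 (-0.19), Slc25a36 (-0.21), Slc25a44 (-0.36) and Slc25a46 (-0.01). In G609G minus LCS they turned it for Slc25a28 (-0.31), Slc25a29 (-0.19), Slc25a3 (-0.15), Slc25a36 (-0.22), Slc25a38 (-0.0633), Slc25a39 (-0.45) and Slc25a46 (-0.0325). Centring on the array median turned Slc25a39 to 0.15 in G609G minus WT. The methods' t-test, with its fold of 1.5, called 9, 1 and 10 Slc25a members higher and 7, 0 and 7 lower in the comparisons of G609G with WT, LCS with WT and G609G with LCS, before and after Benjamini-Hochberg adjustment. It called 6, 2 and 7 partner genes higher and 7, 3 and 8 lower. Of all genes it called 1098, 360 and 1372 higher and 1816, 572 and 1946 lower, or 1086, 358 and 1362, and 1783, 556 and 1934, after adjustment. A filter at the 50th percentile left 8 Slc25a members lower and 2778 of all genes higher in G609G minus LCS, and 40 and 1 probe sets of Slc25a members called in G609G minus WT and LCS minus WT. Only 24 Slc25a members were tested under that filter, and all 24 kept their result in G609G minus LCS. Without a filter on the mean, 6752 and 7408 of all genes were higher in G609G than in WT and LCS. The genes this added are dim, where the shift raises G609G values by construction. These counts are therefore no measure of more genes being higher in G609G. For probe sets of Slc25a members in LCS minus WT, the splicing index called 0 (36 at an unadjusted p under 0.05, where diffSplice called 3 after adjustment) and a fit on the 2 groups alone 9.

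Leaving out 1 array gave 38 to 78 called probe sets of Slc25a members in G609G minus WT, 2 to 8 in LCS minus WT and 51 to 95 in G609G minus LCS, and 7 to 11 partner genes higher in LCS minus WT. Slc25a members higher and lower ranged from 17 to 19 and 11 to 12 in G609G minus WT, 8 to 11 and 7 to 10 in LCS minus WT, and 15 to 16 and 12 to 15 in G609G minus LCS. With the replicate number as a block over all 9 arrays, the Slc25a members called higher and lower were 18 and 12, 10 and 9, and 16 and 14, and the called probe sets 74, 4 and 93. The block changed no call of a Slc25a member in G609G minus WT. The folds of single partner genes were not recomputed under the alternatives. With 3 arrays a group the number of arrays limits the precision, and genes near the floor have compressed folds. Except where a value or the alternative itself shows it, the cause of these changes was not tested.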
